A study of Mus musculus with 7 samples.

Results

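The genes described here encode the protein subunits of the mitochondrial ribosome and were chosen by symbol, as every gene named Mrpl or Mrps followed by a number and at most 1 letter, with names marked -ps (pseudogenes) left out. There were 78 such genes among the 53460 genes of the expression table, 49 with Mrpl symbols, named for the large subunit, and 29 with Mrps symbols, named for the small subunit. RNA sequencing of hearts was carried out in C57BL/6 mice (C57BL/6Ncr by the treatment notes and C57BL/6NCrSlc by the study's methods) in 2 groups. Mice of the TAC group (n = 3) underwent transverse aortic constriction (TAC), in which a tie around the aortic arch makes the left ventricle pump against a raised pressure. Mice of the TAC + EMPA group (n = 4) received the same operation and then chow with empagliflozin (EMPA), which blocks the renal glucose carrier SGLT2. The chow was given for 5 days, starting 2 weeks after the operation. The labels put TAC at 12 weeks and the mice at 14 weeks of age for both groups. Both groups carried the pressure overload, so the comparison asks about the diet on top of it. The cells of the heart were not separated, and a lower level in such tissue can mean fewer cells of a type or less RNA per cell, which cannot be told apart.

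The mitochondrial ribosome translates the few mRNAs of the mitochondrial genome, all of which encode subunits of the respiratory chain and ATP synthase. Its rRNAs come from mitochondrial DNA, whereas all of its proteins are encoded in the nucleus, made in the cytosol and imported. Some of the proteins have bacterial homologs and others are found only in mitochondria. In humans, inherited defects of several of them, including MRPL3, MRPL44, MRPS14 and MRPS22, have been linked to cardiomyopathy.

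Expression was given as FPKM, the fragments of a gene scaled to its transcript length and to the library's mapped fragments, with 1 value per gene and library. Differences are on the scale of log2(FPKM + 1), TAC + EMPA minus TAC, and were tested for the 12391 genes whose FPKM averaged at least 1. TAC 1 to 3 and TAC + EMPA 1 to 4 below name the libraries by replicate number. Between 20250 and 22956 genes per library had a value above 0, and low values of single-exon genes gave relative depths of 1 (TAC 2) to 2.22 (TAC + EMPA 1), with 2.21 in TAC 1 and 1.13 to 1.32 in the other libraries. TAC 3 stood apart from its group: its correlation with the other TAC libraries across genes averaged 0.925, against 0.964 with the TAC + EMPA libraries. The differences of named genes and groups are therefore given with and without TAC 3. No label sets TAC 3 apart, so it was singled out by its values alone, and leaving it out removes spread within the TAC group. Adjusted p-values without TAC 3 rest on TAC 1 and TAC 2 as the only controls and do not account for this choice. Genes said to pass without TAC 3 are thus described, not established as different. Summed FPKM of 10 cardiomyocyte markers was 97490 and 90830 in TAC 1 and TAC 2, 81000 in TAC 3 and 79760 to 85990 in TAC + EMPA, with Myh6 listed at 0 in at least 1 library. Of these 10 genes, 5 had a log2 fold change above 0 and 5 below 0 (median 0.04). The sum of 8 endothelial markers was 406 and 492 FPKM in TAC 1 and TAC 2, 241 in TAC 3 and 227 to 238 in TAC + EMPA, with all 8 log2 fold changes below 0 and none of the 8 listed at 0. The sum of 7 fibroblast markers was 557, 592 and 581 FPKM in TAC 1 to 3 and 581, 536, 501 and 469 in TAC + EMPA 1 to 4. The groups overlapped through TAC + EMPA 1, and 6 of the 7 genes were below 0 (median log2 fold change −0.27). The sum of 6 macrophage markers was 132 to 186 in TAC and 137 to 157 in TAC + EMPA, with 3 genes above and 3 below 0. That of 5 erythroid markers was 213 to 422 and 148 to 471, with 1 gene above and 4 below 0. The macrophage and erythroid sums had no order by group. The sum of 8 hepatocyte markers was 4.54 to 15.6 in TAC and 5.25 to 74.2 in TAC + EMPA, with the highest value in TAC + EMPA 4. The sum of 8 skeletal muscle fiber markers was 4582 to 5215 in TAC and 4670 to 6428 in TAC + EMPA, with Pvalb, Myh1 and Myh4 listed at 0 in at least 1 library and all 7 genes that could be tested above 0 (median log2 fold change 1.37). The part of these cell types in the results below was not tested.

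The promoters of 2 genes above 0 and 2 below 0, chosen for their small p-values, are shown because the members are often described as sharing a set of promoter elements. Each window is RefSeq sequence of GRCm38.p6, from 250 bases before to 50 bases after the annotated start, 5′ to 3′ on the gene's strand (+ for all 4). Mrps2 lies at chr2:28467816-28468115 and Mrps23 at chr11:88204138-88204437. Mrpl2 lies at chr17:46645971-46646270, the first of 3 windows listed for it, and Mrpl14 at chr17:45686099-45686398. Capitals mark a match to 1 of the motifs searched.
Mrps2: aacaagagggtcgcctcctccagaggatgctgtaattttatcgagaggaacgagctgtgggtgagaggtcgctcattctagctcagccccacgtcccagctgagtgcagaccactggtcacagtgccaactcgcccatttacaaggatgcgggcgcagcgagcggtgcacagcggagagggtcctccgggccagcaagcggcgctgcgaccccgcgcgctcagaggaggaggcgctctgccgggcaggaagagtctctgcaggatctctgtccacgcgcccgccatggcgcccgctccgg
Mrps23: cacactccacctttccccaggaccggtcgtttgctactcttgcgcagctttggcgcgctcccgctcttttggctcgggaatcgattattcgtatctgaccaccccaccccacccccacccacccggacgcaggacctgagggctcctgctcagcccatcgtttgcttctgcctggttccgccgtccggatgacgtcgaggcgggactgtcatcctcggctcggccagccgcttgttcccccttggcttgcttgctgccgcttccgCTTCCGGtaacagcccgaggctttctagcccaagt
Mrpl2: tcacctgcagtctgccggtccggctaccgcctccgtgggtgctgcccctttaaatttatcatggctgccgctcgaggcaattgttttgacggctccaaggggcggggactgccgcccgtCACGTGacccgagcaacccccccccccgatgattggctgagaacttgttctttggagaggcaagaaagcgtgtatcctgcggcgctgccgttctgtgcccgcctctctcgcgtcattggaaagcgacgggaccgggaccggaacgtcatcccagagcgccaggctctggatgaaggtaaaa
Mrpl14: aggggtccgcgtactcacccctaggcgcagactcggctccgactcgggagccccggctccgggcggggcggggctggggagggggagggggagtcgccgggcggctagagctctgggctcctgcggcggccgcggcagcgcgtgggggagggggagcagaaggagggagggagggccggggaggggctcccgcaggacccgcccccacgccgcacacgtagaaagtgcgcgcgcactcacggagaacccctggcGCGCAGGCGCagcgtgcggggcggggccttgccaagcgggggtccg
The window of Mrps23 held the ETS letters CCGGAAG on the opposite strand from base 266, that of Mrpl2 an E-box from base 120 and that of Mrpl14 an NRF1 match from base 255, while the window of Mrps2 held none of the motifs. The search covered both strands of the windows of 69 of the 78 members and of 9084 of the genes tested, and the ETS and YY1 letters can overlap at AAG. ETS factors, NRF1 and YY1 are regulators long associated with nuclear genes for mitochondrial proteins. CCGGAAG was found in 37.7% of the members' promoters and 20.6% of the promoters of tested genes. The NRF1 letters GCGCA and GCGC, with 1 base of any kind between them, were found in 18.8% and 11.8%, and the YY1 letters AAGATGGC in 17.4% and 5.45%. The E-box CACGTG was found in 7.25% and 12.0%, and the ERR letters TCAAGGTCA in 0% and 0.363%. Of the 42 members with a window and a log2 fold change below 0, 47.6% held CCGGAAG, against 22.2% of the 27 members above 0. For AAGATGGC these shares were 11.9% and 25.9%. The other tested genes were not split by sign, and members very near 0, such as Mrpl43 and Mrpl48, are counted by their sign too. A match describes the letters of the window only.

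All 78 members were well expressed and all entered the test. Their mean over the 7 libraries ran from 9.63 FPKM (Mrps30) to 438 FPKM (Mrpl42), with a median of 53.6. This places the lowest member at the 55.6th and the highest at the 98.4th percentile of tested genes, and the smallest estimate for any member in any library was 203 fragments (Mrps22). The 5 pseudogene names left out had means of 0 to 0.590 FPKM. The 4 highest levels per length belonged to Mrpl42, Mrps21, Mrpl30 and Mrpl33. Mrpl42, a mitochondria-specific protein, was at 446, 420 and 446 FPKM in TAC 1 to 3 and at 459, 474, 420 and 402 FPKM in TAC + EMPA 1 to 4. Mrps21, the homolog of bacterial bS21, was at 587, 499 and 356 FPKM against 345, 383, 347 and 362. Mrpl30, the homolog of uL30, was at 385, 386 and 334 FPKM against 315, 324, 326 and 308. The groups overlapped for Mrpl42 and Mrps21, whereas every TAC + EMPA library was below every TAC library for Mrpl30. Mrpl33, the homolog of bL33, was at 295, 322 and 190 FPKM against 209, 222, 186 and 187. The lowest levels belonged to Mrps30, which despite its name sits in the large subunit, at 9.32, 10.1 and 8.70 FPKM against 9.83, 9.63, 9.17 and 10.7. They were followed by Mrpl1, the homolog of uL1 of the L1 stalk, at 8.31, 7.73 and 11.5 FPKM against 11.3, 10.6, 10.9 and 12.5.

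**Figure D1:**
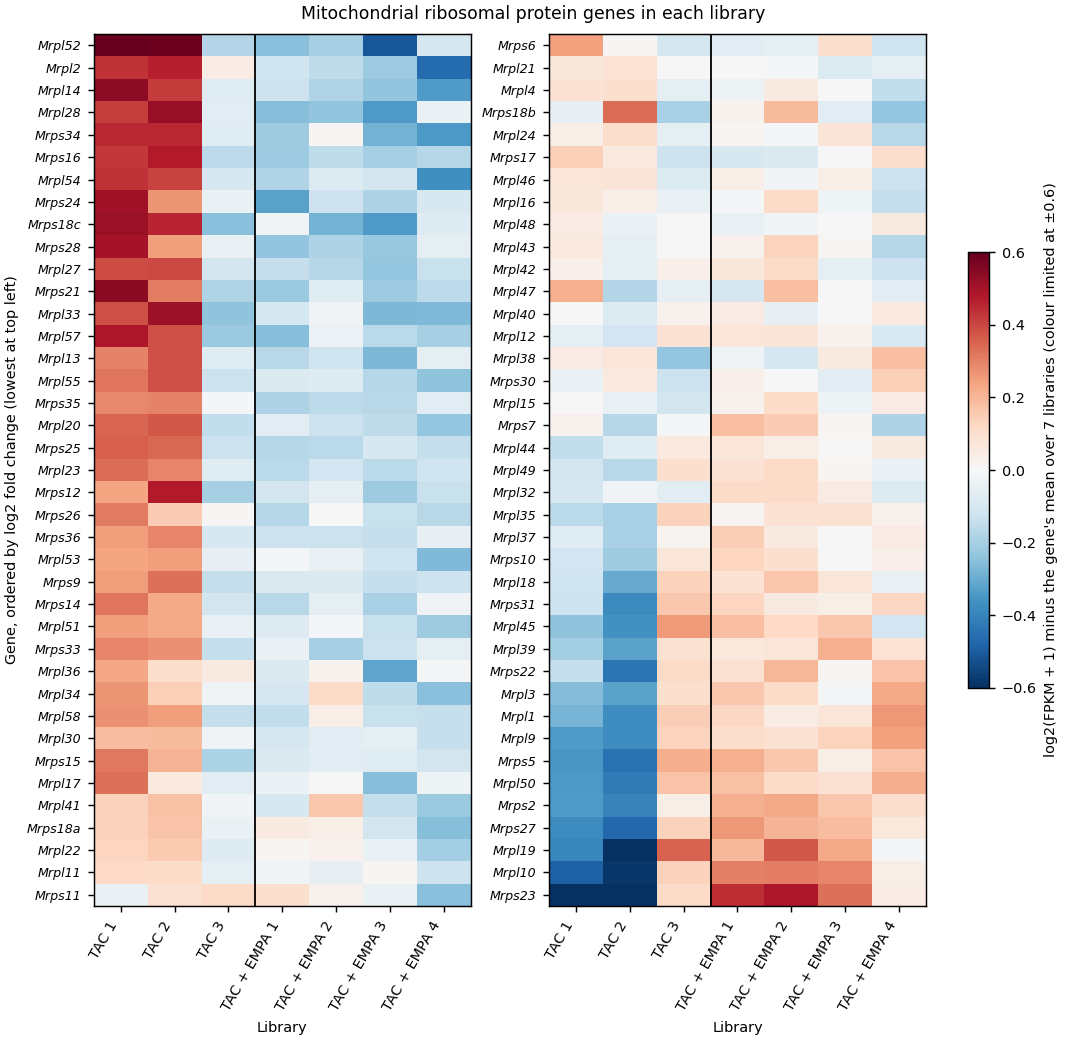
Level of the 78 genes (rows, in 2 panels ordered by log2 fold change) in the 7 libraries (columns, TAC left of the black line), as log2(FPKM + 1) minus the gene's mean over the libraries. The colours of TAC 1 and TAC 2 run from high at the top left to low at the bottom right, and the column of TAC 3 looks like the TAC + EMPA columns.

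No member passed the test between TAC + EMPA and TAC with all 7 libraries. At an adjusted p under 0.05, 0 of 78 members were higher and 0 lower (all tested genes, 0.0% and 0.0%), and the smallest adjusted p of a member was 0.115 (limma, Benjamini-Hochberg over 12391 genes). At an unadjusted p under 0.05, 5 members were higher and 16 lower, where 19.0% of all tested genes were higher and 14.7% lower. These unadjusted counts depended on single libraries: they were 2 and 2 without TAC 1, 2 and 3 without TAC 2, and 20 and 35 without TAC 3. Without TAC 3 the shares over all genes also rose, to 32.7% higher and 26.7% lower. TAC + EMPA 1 or 3 left out gave 3 and 8. Shares over all genes are not given for the fits without another library, so whether the members or the whole table moved there cannot be told. The log2 fold change was above 0 for 30 members and below 0 for 48, against 53.2% of all genes above 0 and 46.8% below 0. The median of the members was −0.09 and that of all genes 0.03. Mrps genes had a median of −0.19 (9 above and 20 below 0) and Mrpl genes of −0.05 (21 above and 28 below 0). The medians without TAC 3 were −0.34 for Mrps and −0.09 for Mrpl genes. The groups did not overlap for 1 member that was higher, Mrps2 (11.5% of all genes), and for 10 that were lower: Mrpl2, Mrpl14, Mrpl23, Mrpl27, Mrpl30, Mrpl36, Mrps24, Mrps26, Mrps28 and Mrps35 (10.7% of all genes). The summed FPKM of the 78 members was 6865, 6679 and 5776 in TAC 1 to 3 and 5799, 5972, 5574 and 5495 in TAC + EMPA 1 to 4. TAC 1 and TAC 2 were thus above all other libraries, and TAC 3 lay among those of TAC + EMPA.

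The members with the smallest p-values above 0 came from both subunits. Mrps2, the homolog of uS2 in the small subunit, lies on chromosome 2 (28468066 to 28471178) and was at 11.3, 10.8 and 15 FPKM in TAC and at 17.1, 17.3, 16.4 and 15.7 FPKM in TAC + EMPA. All of its TAC + EMPA values were above its TAC values, by 0.41 ± 0.12 (SE) on the log2 scale (adjusted p = 0.115). Mrps23, a mitochondria-specific small subunit protein, lies on chromosome 11 (88204388 to 88211507) and was at 118, 128 and 218 FPKM against 274, 282, 253 and 208. It had the largest log2 fold change of the members, 0.76 ± 0.23 (adjusted p = 0.115), with means of 155 ± 55.1 (SD, n = 3) and 254 ± 33.2 (SD, n = 4), and the groups overlapped through TAC 3 and TAC + EMPA 4. Mrpl10, a protein of the stalk base to which the L7/L12 proteins bind, was at 23.8, 22.3 and 37.3 FPKM against 41.9, 42.1, 41.7 and 34.6 (0.55 ± 0.19, adjusted p = 0.117). Its exons overlap the antisense gene Gm11574, and whether strand was used in the counting is not stated. In these 3 genes the lowest TAC + EMPA library was replicate 4. Without TAC 3 the differences were 0.55 for Mrps2 (adjusted p = 0.00104), 1.03 for Mrps23 (adjusted p = 0.00121) and 0.77 for Mrpl10 (adjusted p = 0.00123), and all 3 passed.

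The next members above 0 had values near those of TAC + EMPA in TAC 3 only. Mrps27, a pentatricopeptide repeat protein of the small subunit, was at 19.1, 17.9 and 27.8 FPKM against 30.3, 29.1, 28.8 and 26.3 (0.42 ± 0.16). Mrpl9, the homolog of bL9, was at 35.6, 34.8 and 49.9 FPKM against 48.8, 48.4, 49.9 and 54.0 (0.34 ± 0.14). Mrpl50, a mitochondria-specific protein, was at 18.7, 17.7 and 27.2 FPKM against 27.3, 26.2, 25.7 and 28.2 (0.35 ± 0.15). Adjusted p was 0.124 for Mrps27, 0.144 for Mrpl9 and 0.152 for Mrpl50. With TAC 3 left out all 3 passed, at 0.60 for Mrps27 (adjusted p = 0.00120), 0.50 for Mrpl9 (adjusted p = 0.00149) and 0.53 for Mrpl50 (adjusted p = 0.00113). The exons of Mrps27 and Mrpl9 overlap antisense genes (6430562O15Rik and Oaz3).

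Below 0, the smallest p-value was that of Mrpl2, the homolog of uL2, which borders the site of peptide bond formation. It lies on chromosome 17 (46646229 to 46650139) and was at 238, 243 and 181 FPKM in TAC and at 162, 158, 151 and 127 FPKM in TAC + EMPA (−0.55 ± 0.14, adjusted p = 0.115), with no overlap between the groups. Mrpl14, the homolog of uL14 at the face between the subunits, lies on the same chromosome (45686322 to 45698495) and was at 144, 132 and 93.8 FPKM against 90.5, 87.0, 83.7 and 77.7 (−0.52 ± 0.16, adjusted p = 0.116), again with no overlap. Mrpl28, the homolog of bL28, was at 165, 178 and 118 FPKM against 103, 105, 97.4 and 120 (−0.51 ± 0.16, adjusted p = 0.117). Its TAC 3 value lay just under that of TAC + EMPA 4. Without TAC 3, Mrpl2 was at −0.69 (adjusted p = 0.00238), Mrpl14 at −0.70 (adjusted p = 0.000838) and Mrpl28 at −0.69 (adjusted p = 0.00158), and all 3 passed.

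The other 3 members of smallest p-value below 0 are small subunit genes. Mrps35, a head protein, was at 209, 211 and 170 FPKM against 151, 153, 152 and 163 (−0.34 ± 0.11). Mrps28, also called bS1m, was at 71.5, 60.1 and 48.9 FPKM against 42.6, 44.2, 42.9 and 48.4 (−0.41 ± 0.14). Mrps34, a mitochondria-specific protein whose loss in mice lowers mitochondrial translation, was at 86.6, 86.6 and 59.9 FPKM against 54.2, 63.3, 51.5 and 49.4 (−0.49 ± 0.16). The adjusted p was 0.117 for each of the 3 genes. Groups did not overlap for Mrps35 and Mrps28, and overlapped through TAC 3 and TAC + EMPA 2 for Mrps34. The lowest log2 fold change of all members, named after its value was seen, was that of Mrpl52 (−0.62 ± 0.22, adjusted p = 0.118), at 159, 153 and 89.7 FPKM against 85.1, 88.2, 71.1 and 94.4. These 4 genes also passed once TAC 3 was left out, at −0.44 for Mrps35 (adjusted p = 0.00133), −0.55 for Mrps28 (adjusted p = 0.00353), −0.66 for Mrps34 (adjusted p = 0.00275) and −0.88 for Mrpl52 (adjusted p = 0.00134).

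**Figure D2:**
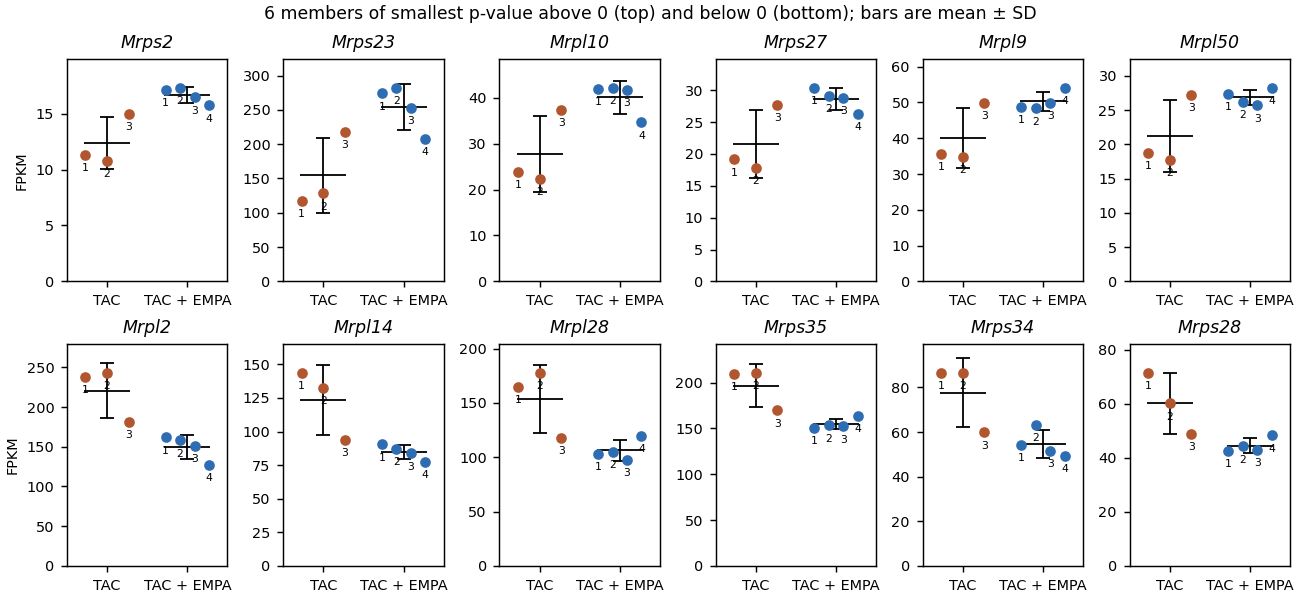
FPKM in each library (points, numbered by replicate) for the 6 members of smallest p-value with a log2 fold change above 0 (top) and below 0 (bottom), with mean ± SD of TAC (n = 3) and TAC + EMPA (n = 4). TAC 3 lies between TAC 1 and 2 and the TAC + EMPA points or among the latter, and all axes start at 0.

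By place in the ribosome, members above and below 0 stood side by side. The regions were assigned from textbook structure with the values known. The 3 proteins of the L7/L12 stalk, which recruits the elongation factors, had a median of 0.05, from −0.10 (Mrpl11) to 0.55 (Mrpl10). Mrpl12, the L7/L12 protein itself, which has also been reported to bind the mitochondrial RNA polymerase, was at 133, 128 and 147 FPKM against 146, 147, 142 and 130 (0.05 ± 0.10, adjusted p = 0.725). Mrpl11, the homolog of uL11, was at 15.5, 15.4 and 13.6 FPKM against 14.0, 13.7, 14.3 and 12.9 (−0.10 ± 0.09). Within the stalk, then, only Mrpl10 had an unadjusted p under 0.05. Leaving out TAC 3 gave a median of 0.11 for the stalk, with 0.11 for Mrpl12 (adjusted p = 0.235) and −0.16 for Mrpl11 (adjusted p = 0.0789).

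Near the peptidyl transferase centre, the values of Mrpl2, Mrpl3, Mrpl16 and Mrpl27 had a median of −0.22 and split in sign. Mrpl3, the homolog of uL3, was at 60.6, 58.1 and 77.9 FPKM against 81.7, 78.7, 72.6 and 85.4 (0.29 ± 0.13, adjusted p = 0.162). Mrpl27, the homolog of bL27, was at 59.1, 59.2 and 41.4 FPKM against 40.6, 39.7, 38.0 and 40.7 (−0.39 ± 0.14, adjusted p = 0.120). Mrpl16, the homolog of uL16, was at 60.4, 59.3 and 55.9 FPKM against 57.2, 62.6, 56.6 and 52.3 (−0.04 ± 0.10). In Mrpl3 and Mrpl27, TAC 1 and TAC 2 stood apart from all other libraries in opposite directions, and in Mrpl16 the groups overlapped widely. Without TAC 3 the median of the 4 genes was −0.32, and Mrpl3 (0.42, adjusted p = 0.00543) and Mrpl27 (−0.56, adjusted p = 0.000611) passed, whereas Mrpl16 did not (−0.07, adjusted p = 0.502).

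The 8 proteins around the exit of the peptide tunnel had a median of −0.02. Mrpl44, which resembles ribonuclease III, was at 31.8, 33.6 and 36.9 FPKM against 37.2, 36.3, 35.4 and 36.8 (0.09 ± 0.09, adjusted p = 0.455). Mrpl45, which anchors the ribosome to the inner membrane, was at 18.6, 17 and 26.7 FPKM against 25.3, 24.2, 25 and 20.5 (0.20 ± 0.16, adjusted p = 0.380). In Mrpl45, TAC 3 was above every TAC + EMPA library, and without it the difference was 0.39 and passed (adjusted p = 0.0187). Mrpl44 did not pass without TAC 3 (0.15, adjusted p = 0.0664). The 7 proteins of the central protuberance had a median of −0.00, from −0.62 (Mrpl52) to 0.16 (Mrpl18), and the 29 other large subunit proteins a median of −0.16. Without TAC 3 the medians were −0.05 for the tunnel exit, −0.03 for the central protuberance and −0.22 for the others.

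In the small subunit, 8 head proteins had a median of −0.25 and 18 proteins of the body and platform of −0.15. Mrps12, the homolog of uS12 at the decoding site, was at 110, 130 and 81.1 FPKM against 86.5, 89.9, 80.5 and 85.0 (−0.30 ± 0.16, adjusted p = 0.219). Mrps16, the homolog of bS16, was at 82.3, 85.3 and 54.6 FPKM against 52.3, 54.9, 53.0 and 54.1 (−0.43 ± 0.16, adjusted p = 0.123). In Mrps16, TAC 3 lay inside the narrow range of the 4 TAC + EMPA libraries, and TAC 1 and TAC 2 were above it. Without TAC 3 both genes passed, Mrps12 at −0.48 (adjusted p = 0.00439) and Mrps16 at −0.64 (adjusted p = 0.000370), and the medians were −0.39 for the head and −0.25 for the body and platform.

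Opposite signs were seen beside them. Mrps5, the homolog of uS5, whose mutation has been used in mice to impair mitochondrial translation, was at 37.6, 35.2 and 56.3 FPKM against 56.1, 54.1, 49.5 and 54.4 (0.34 ± 0.17, adjusted p = 0.188). Mrps22, a mitochondria-specific protein, was at 12.4, 9.89 and 15 FPKM against 14.7, 15.9, 13.9 and 15.6 (0.27 ± 0.14, adjusted p = 0.197). In both genes TAC 1 and TAC 2 were below every other library. Without TAC 3 both passed, Mrps5 at 0.54 (adjusted p = 0.00143) and Mrps22 at 0.41 (adjusted p = 0.0175).

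The paralogs Mrps18a, Mrps18b and Mrps18c derive from bacterial bS18 and occupy different places, with Mrps18a in the large subunit and the other pair in the small subunit. Mrps18a was at 86.1, 88.0 and 76.0 FPKM against 81.1, 80.5, 72.4 and 65.4 (−0.16 ± 0.12). Mrps18b was at 34.3, 45.0 and 30.9 FPKM against 36.1, 40.7, 33.8 and 30.1 (−0.05 ± 0.16). Mrps18c was at 123, 119 and 72.1 FPKM against 84.9, 70.6, 67.7 and 81.4 (−0.42 ± 0.20). The groups overlapped in all 3 and adjusted p was 0.181 or more, and the sign of Mrps18a and Mrps18b turned after correction for transcript length (0.02 and 0.09). Mrps36 carries a ribosomal name but is a component of the α-ketoglutarate dehydrogenase complex. It was at 80.4, 82.9 and 63.1 FPKM against 61.6, 61.6, 61.2 and 65.1 (−0.26 ± 0.12, adjusted p = 0.161). Without TAC 3, Mrps18c (−0.67, adjusted p = 0.00280) and Mrps36 (−0.38, adjusted p = 0.00210) passed, and Mrps18a (−0.22, adjusted p = 0.108) and Mrps18b (−0.16, adjusted p = 0.391) did not. Exons of Mrpl12, Mrpl33, Mrps18b, Mrps18c and Mrps30 also overlap other annotated genes. The 48 members with bacterial homologs had a median of −0.11 and the 29 mitochondria-specific ones of 0.00, and without TAC 3 these were −0.18 and −0.01.

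The comparison turned on TAC 3, which was singled out by its values. For 72 of 78 members TAC 3 was nearer to the mean of TAC + EMPA than to the mean of TAC 1 and 2 (76.9% of all genes), and for 55 it lay within the range of the TAC + EMPA libraries (54.8% of all genes). Against TAC 1 and TAC 2 alone, the mean of TAC + EMPA differed by a median of −0.17 and −0.14, and against TAC 3 by −0.01. For Mrps genes these medians were −0.36, −0.29 and 0.00, and for Mrpl genes −0.10, −0.12 and −0.02. Without TAC 3, 17 members passed as higher (29.8% of all genes) and 31 as lower (23.6% of all genes) at an adjusted p under 0.05, and the median was −0.16. At an unadjusted p under 0.05 these counts were 20 (32.7% of all genes) and 35 (26.7% of all genes). In that comparison of 2 against 4 libraries the groups did not overlap for 20 higher members (36.5% of all genes) and 40 lower members (30.4% of all genes). The members that passed as higher ran from 0.23 (Mrps10) to 1.03 (Mrps23), and those that passed as lower from −0.28 (Mrpl30) to −0.88 (Mrpl52). The share of higher members was below, and that of lower members above, the share over all genes. Of the genes of highest level, Mrps21 moved from −0.39 (adjusted p = 0.154) to −0.59 (adjusted p = 0.00187), Mrpl33 from −0.39 (adjusted p = 0.187) to −0.62 (adjusted p = 0.00230) and Mrpl30 from −0.21 (adjusted p = 0.170) to −0.28 (adjusted p = 0.00552). Mrpl42 stayed near 0, at 0.00 and 0.02. Of the genes of lowest level, Mrpl1 moved from 0.29 (adjusted p = 0.178) to 0.45 (adjusted p = 0.00506), and Mrps30 was at 0.07 and 0.02. In TAC 1 and TAC 2 the summed endothelial and cardiomyocyte markers were likewise above those of all other libraries. All 8 endothelial genes were below 0, whereas the cardiomyocyte genes split into 5 above and 5 below 0. The part of these cell types was not tested.

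**Figure D3:**
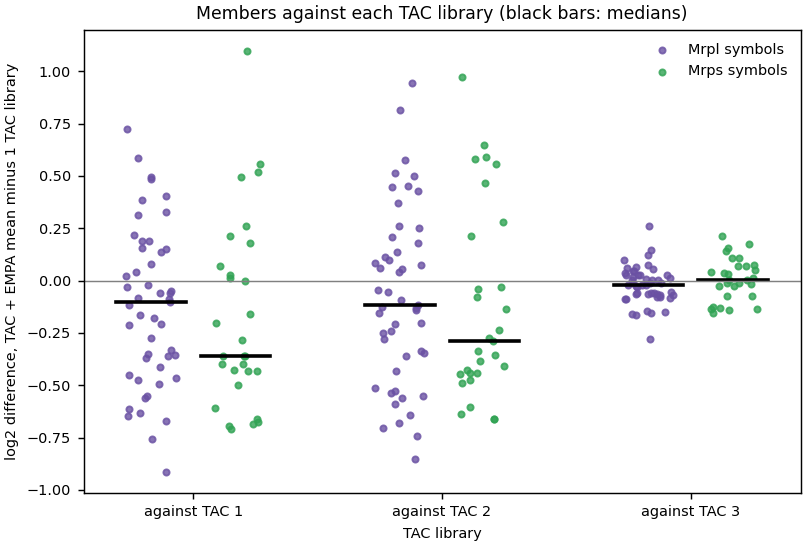
Log2 difference between the mean of the 4 TAC + EMPA libraries and 1 TAC library for each Mrpl gene (purple) and Mrps gene (green), with black bars at the medians. The points spread widely against TAC 1 and TAC 2 and lie close to 0 against TAC 3.

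Almost all members with transcripts under 1000 bases were below 0, whereas longer members had both signs. Across the 78 members the log2 fold change and the log2 of the median transcript length correlated with Pearson's r = 0.425 and Spearman's rho = 0.503, and across 12372 genes tested with 0.232 and 0.268. Without TAC 3 the values were 0.436 and 0.506 for the members and 0.256 and 0.274 for the genes tested. Genes of a sample share its library and are not independent replicates, so no p is given. Of the 30 members under 1000 bases, 29 were below 0, with a median of −0.28. The 1797 tested genes of that length had a median of −0.25, with 1275 of them (71.0%) below 0. The 28 members from 1000 to under 2000 bases had a median of 0.06 (17 above and 11 below 0), against −0.04 for 3006 genes (55.1% below 0). The 20 members of 2000 bases or more had 0.09 (12 above and 8 below 0), against 0.12 for 7569 genes (37.9% below 0). Without TAC 3, 20 of the 30 short members passed as lower (66.7%) and 0 as higher, against 39.5% and 7.57% of the tested genes under 1000 bases. GC content of the transcripts correlated with the log2 fold change of the members at −0.322 (Pearson) and −0.322 (Spearman), against −0.230 and −0.275 across the genes tested.

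After each library was corrected for its trend on length, the members' median was −0.00 and their correlation with length 0.012 (Pearson) and 0.147 (Spearman). The corrected median was −0.05 for Mrps and 0.00 for Mrpl genes. For members with bacterial homologs it was −0.01, and for the mitochondria-specific ones 0.06. At an unadjusted p under 0.05, 6 members were then higher (15.7% of all genes) and 13 lower (16.0% of all genes), and none passed after adjustment. Of the 30 members under 1000 bases, 22 were still below 0 (73.3%, median −0.09), against 55.1% of the tested genes of that length. By the unadjusted p, 5 of the 30 were then lower and 0 higher, and without TAC 3 the adjusted test gave 14 lower and 1 higher. Of the 1797 tested genes of that length, 283 were lower and 191 higher by the unadjusted p. Without TAC 3 the adjusted test gave 432 of them lower and 277 higher. The 28 members from 1000 to under 2000 bases went the other way, with 21 above and 7 below 0 after correction (median 0.10). The 3006 tested genes of that length had a corrected median of 0.003, with 49.8% below 0. Without TAC 3 the adjusted test gave 13 of the 28 higher and 5 lower, against 708 and 715 of the 3006. The 20 members of 2000 bases or more had 9 above and 11 below 0 (median −0.03), against 49.4% of 7569 genes below 0. Among genes with long transcripts, Mrps35 was at −0.48 after correction (unadjusted p = 0.00958) and Mrps16 at −0.51 (unadjusted p = 0.0256). Mrpl2 was at −0.42 (unadjusted p = 0.00901), Mrps2 at 0.38 (unadjusted p = 0.00955) and Mrps23 at 0.83 (unadjusted p = 0.0101). All 5 genes passed with the correction and without TAC 3, at −0.64, −0.75, −0.50, 0.49 and 1.13 in this order. Mrpl30 moved from −0.21 to −0.02 and Mrps36 from −0.26 to −0.07. With the correction and without TAC 3, 21 members passed as higher (25.3% of all genes) and 27 as lower (25.5% of all genes), and 22 (28.4% of all genes) and 28 (29.3% of all genes) did so at an unadjusted p under 0.05. Of those that passed after adjustment, 15 higher and 25 lower members had also passed without the correction. Mrpl30, Mrps36 and 4 more short genes no longer passed as lower, and 6 genes that included Mrpl12, Mrpl42 and Mrpl44 passed as higher only with the correction.

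**Figure D4:**
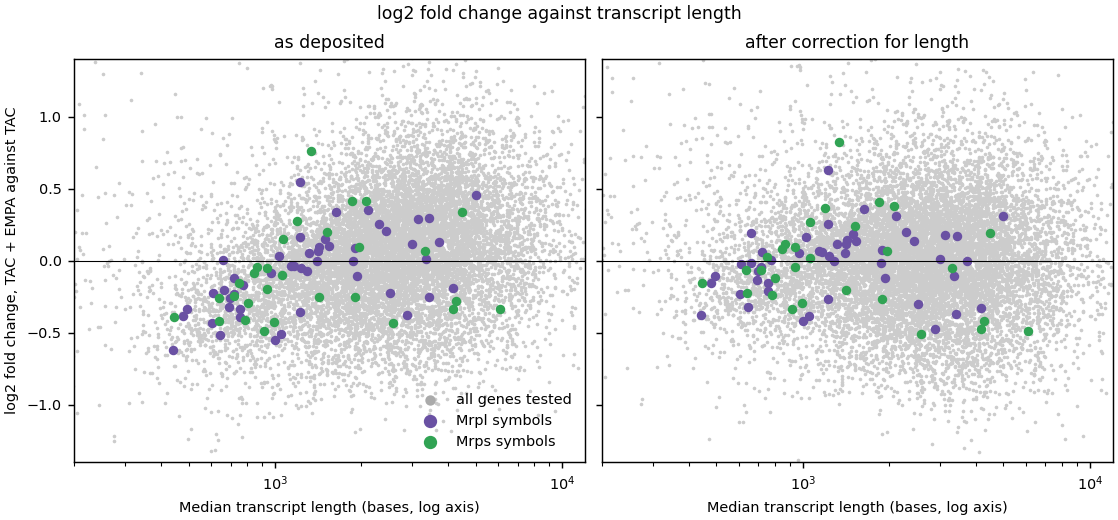
Log2 fold change between TAC + EMPA and TAC against median transcript length (log axis, bases) for Mrpl genes (purple), Mrps genes (green) and all tested genes (grey), as deposited (left) and after correction for length (right). On the left, 29 of 30 members under 1000 bases lie below 0, and on the right 22 of these 30 do, closer to 0. Of the 28 members from 1000 to under 2000 bases, 17 lie above 0 on the left and 21 on the right.

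Genes that act with the mitochondrial ribosome were described from lists chosen with earlier results known, and no gene of them passed at an adjusted p under 0.05 with all libraries. The shares over all genes, given above, were 19.0% higher and 14.7% lower by the unadjusted p, and 29.8% and 23.6% after adjustment without TAC 3. The 5 mitoribosomal proteins under other names (Dap3, Ptcd3, Chchd1, Aurkaip1 and Gadd45gip1) had a median of −0.31, with 0 higher and 2 lower at an unadjusted p below the same limit. Gadd45gip1, also called CRIF1, a protein of the tunnel exit, was at 16.3, 16.5 and 11.6 FPKM against 11.2, 12.0, 9.88 and 9.98 (−0.41 ± 0.14, adjusted p = 0.118). Chchd1, a small subunit protein, was at 123, 125 and 98.7 FPKM against 93.2, 101, 84.3 and 91.1 (−0.31 ± 0.12, adjusted p = 0.129). Both genes overlapped between groups through TAC 3, and both passed without it (−0.57, adjusted p = 0.00307, and −0.42, adjusted p = 0.00590), as did 4 of the 5 in all.

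Assembly and translation factors had medians above 0, with median transcript lengths of 1542 and 2583 bases. After the length correction their medians were 0.18 and 0.31. The 25 assembly factors had a median of 0.14, with 7 higher (28.0%) and 3 lower (12.0%) by the unadjusted p, and 11 higher (44.0%) and 5 lower (20.0%) after adjustment without TAC 3. Both shares of lower genes were under those over all genes. Mettl17, a factor of small subunit assembly, was at 14.0, 10.1 and 12.9 FPKM against 19.9, 22.1, 22 and 20.1 (0.73 ± 0.12, adjusted p = 0.115). Mettl15, a methyltransferase of the small rRNA, was at 2.30, 1.60 and 3.60 FPKM against 4.75, 4.32, 4.57 and 4.81 (0.72 ± 0.18, adjusted p = 0.115). The TAC + EMPA values of both genes lay above all of their TAC values, and for Mettl17 TAC 3 lay between TAC 1 and TAC 2. Without TAC 3 they were at 0.77 (adjusted p = 0.00345) and 0.94 (adjusted p = 0.00103).

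The 17 translation factors had a median of 0.35, with 7 higher (41.2%) and 2 lower (11.8%) by the unadjusted p, and 12 (70.6%) and 2 (11.8%) after adjustment without TAC 3. Slirp, which stabilises mitochondrial mRNAs with Lrpprc, was at 120, 120 and 81.7 FPKM against 59.0, 66.3, 57.9 and 77.3 (−0.70 ± 0.18, adjusted p = 0.115). Tsfm, the exchange factor of the elongation factor Tufm, was at 50.2, 49.9 and 46.1 FPKM against 35.3, 41.9, 37.8 and 38.3 (−0.34 ± 0.10, adjusted p = 0.115). The groups did not overlap for either gene, and all TAC + EMPA values were the lower ones. Without TAC 3, Slirp was at −0.88 (adjusted p = 0.00177) and Tsfm at −0.38 (adjusted p = 0.00762).

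The 18 genes of mitochondrial genome expression and its regulators had a median of 0.44, with 8 higher (44.4%) and 1 lower (5.56%) by the unadjusted p and 10 (55.6%) and 1 (5.56%) after adjustment without TAC 3. Yy1 was at 9.08, 9.54 and 10.5 FPKM against 14.5, 13.8, 14.1 and 12.3 (0.45 ± 0.10, adjusted p = 0.115). Tfb2m, a transcription factor of mitochondrial DNA, was at 14.5, 13 and 29.3 FPKM against 34.8, 32.4, 36.2 and 38.5 (0.96 ± 0.26, adjusted p = 0.115). Both were higher in every TAC + EMPA library than in any TAC library, and without TAC 3 they were at 0.51 (adjusted p = 0.00318) and 1.30 (adjusted p = 0.000227).

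The 19 aminoacyl-tRNA synthetases and related enzymes of mitochondria had a median of 0.20, with 3 higher (15.8%) and 1 lower (5.26%) by the unadjusted p, both under the shares over all genes, and 12 (63.2%) and 2 (10.5%) after adjustment without TAC 3. Nars2, which charges the tRNA for asparagine, was at 4.89, 3.74 and 7.79 FPKM against 8.51, 7.38, 8.30 and 9.40 (0.58 ± 0.20), and Pars2, the prolyl-tRNA synthetase, at 2.06, 2.11 and 2.49 FPKM, did not overlap with its TAC + EMPA values of 2.89, 2.99, 2.91 and 2.67. Without TAC 3 both passed (0.83, adjusted p = 0.00224, and 0.33, adjusted p = 0.0146). The 9 mitochondrial proteases had a median of 0.25, with 3 higher (33.3%) and 0 lower by the unadjusted p, and 5 (55.6%) and 2 (22.2%) after adjustment without TAC 3. Oma1, a stress-activated protease of the inner membrane, was at 12.4, 12.3 and 16.9 FPKM against 17.3, 18.2, 16.4 and 18.2. Clpx, of the matrix protease ClpXP, was at 17.9, 14.0 and 33.8 FPKM against 31.3, 30.8, 34.0 and 42.3. Oma1 was at 0.33 (adjusted p = 0.126) and Clpx at 0.72 (adjusted p = 0.129) with all libraries, and at 0.47 (adjusted p = 0.00199) and 1.07 (adjusted p = 0.00203) without TAC 3.

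The proteins of the cytosolic ribosome and the nuclear subunits of oxidative phosphorylation had medians further below 0 than the members. All 78 tested cytosolic ribosomal protein genes were below 0, with a median of −0.48 and 60 lower at an unadjusted p under 0.05 (74 after adjustment without TAC 3). The 81 oxidative phosphorylation subunits had a median of −0.42, with 3 higher and 49 lower by the unadjusted p (7 and 62 after adjustment without TAC 3). After the length correction the medians were −0.30 and −0.25. Median transcript lengths were 776 and 742 bases, against 1224 for the members. The lists of genome expression, synthetases and proteases had 2566, 2356 and 2847 bases. Their medians after the length correction were 0.33, 0.17 and 0.15. For the mitoribosomal proteins under other names (1409 bases) the corrected median was −0.11. The 2 mitochondrial rRNAs, which form the RNA core of the ribosome, lack the long poly(A) tails of nuclear mRNAs. Of the 13 mitochondrially encoded mRNAs, mt-Co1, mt-Atp8, mt-Atp6, mt-Co3, mt-Nd4, mt-Cytb and mt-Nd4l are listed at 0 in every library. Most of the others are listed at 0 in some libraries. The levels of these rRNAs and mRNAs were therefore not compared.

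**Figure D5:**
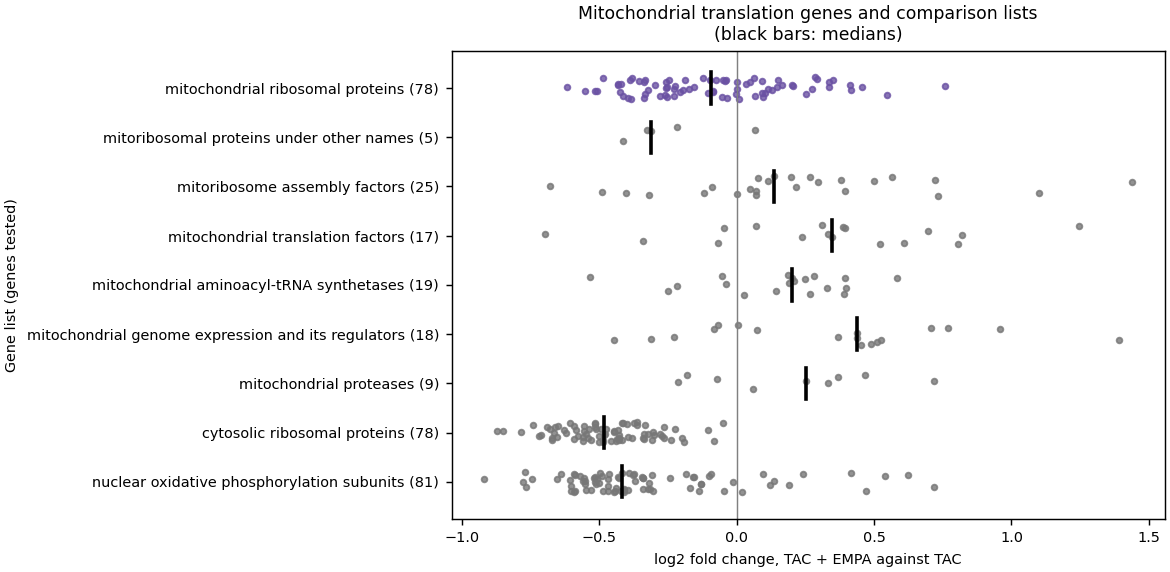
Log2 fold change between TAC + EMPA and TAC for the mitochondrial ribosomal protein genes (purple) and related lists (grey), 1 point per tested gene, with the number of genes in brackets and black bars at the medians. The medians of the factors lie above 0, from 0.14 to 0.44, those of the cytosolic ribosome and of oxidative phosphorylation at −0.48 and −0.42, and that of the members at −0.09.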

How the data were processed

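RNA was sequenced from the hearts of 7 mice, 3 TAC and 4 TAC + EMPA, grouped by the sample labels. Stranded libraries of polyadenylated RNA were mapped by the authors to GRCm38 with TopHat2 2.0.13, and the deposited FPKM per gene and library came from Cuffdiff of Cufflinks 2.2.1. Whether strand was used in counting, and how libraries were scaled to each other, is not given in the sources used here. FPKM divides by transcript length and by depth, so that a trend on length differing between libraries remains in it. The authors' own fold changes, p-values and q-values between the groups, and their tables of enriched terms, were not used. The paper's methods give another age at TAC and other numbers of libraries and groups than the labels, which were followed and whose group sizes match the paper's legend for these data.

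Of 53460 genes, the 12391 whose FPKM averaged at least 1 were taken as log2(FPKM + 1). The difference between TAC + EMPA and TAC was fitted with limma 3.58.1 in R 4.3.3 (trended prior, two-sided test), and p-values were adjusted over all kept genes by Benjamini-Hochberg, with a threshold of 0.05. Nothing in the labels describes a pairing or batch, and p-values measure the spread between these mice only. Median transcript lengths, GC content and positions are from GENCODE M21 (GRCm38), with a length for 99.8% of kept genes; the correction subtracted a loess trend (span 0.5) from each library. Depth was read from the steps that single fragments leave in low FPKM values of single-exon genes, where 98.5% to 99.5% of values were within 0.1 of a whole number. Total depths are unknown, and no counting interval is given. Of the members, 26 share exon sequence with another gene, and close paralogs can share fragments.

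The members and lists were chosen with earlier results of these data known. Members named in full are the 6 of smallest p-value in each direction, the 4 highest and 2 lowest in mean FPKM, the Mrps18 paralogs and 11 genes of known role, and up to 2 genes of smallest p-value were named from most related lists. The fit, the length correction and the reading of depth were tested on simulated data. The alternatives covered the pseudocount, filter, scaling, replicate block, length, prior variance and libraries left out, and the length correction combined with removal of TAC replicate 3 was added after the data had been seen. Tables and figures were made with Python 3.11.15, pandas 2.3.3 and matplotlib 3.10.9.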

Additional observations from a re-analysis of the deposited data

Results flagged for a closer look

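In groups of 4 to 10 samples, a library was singled out when its gap to the nearest other value, divided by the range of the group, exceeded Dixon's critical value. This could be examined in the 4 TAC + EMPA libraries and not in the 3 TAC libraries. Of 80 sets of values examined (the 78 members, their summed FPKM and their median level), 4 were singled out, and chance gives about 5%. Mrpl10 was at 34.6 FPKM in TAC + EMPA 4 against 41.7 to 42.1 in the others (0.946 of the range). Mrpl39, of the tunnel exit, was at 25.7 FPKM in TAC + EMPA 3 against 23.1 to 23.3 (0.891). Mrpl58, a protein with peptidyl-tRNA hydrolase activity, was at 89.3 FPKM in TAC + EMPA 2 against 78.3 to 79.2 (0.917). Mrps36 was at 65.1 FPKM in TAC + EMPA 4 against 61.2 to 61.6 (0.897). The causes were not tested.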

How the results depend on the processing

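The median log2 fold change of the members, −0.09 with all libraries, moved by less than 1 SD between libraries (0.0964 on the log2 scale) under every alternative run. That SD is wider than the median is far from 0, so this does not show that the median is stable. It came to −0.00 with the length correction, and with single libraries left out it ran from −0.16 to −0.07. Pseudocount 0.1, a filter at a mean FPKM of 5, quantile normalization, median centring, the length correction and a constant prior variance moved no count of calls by over 1.5 times. With no filter, 2 genes of the whole table were lower. With TAC 3 and TAC + EMPA 4 both left out, 3761 genes were higher and 2957 lower, as were 18 and 31 members (22 and 33 at an unadjusted p under 0.05). With the length correction and without TAC 3, 3131 genes were higher and 3156 lower, as were 21 and 27 members (22 and 28 at an unadjusted p under 0.05). Leaving out 1 library at a time gave 0 to 3694 higher and 0 to 2930 lower genes, 0 to 17 higher and 0 to 31 lower members, 2 to 20 higher and 2 to 35 lower members at an unadjusted p under 0.05, and 1 to 20 higher and 10 to 40 lower members that did not overlap. In each range the highest value was that without TAC 3. At an unadjusted p under 0.05, the lowest counts (2 higher and 2 lower) were those without TAC 1, and without TAC 2 there were 2 and 3. Without TAC + EMPA 1, 2 or 3 there were 3 higher, and 8 lower without TAC + EMPA 1 or 3. The members that did not overlap were 2 higher without TAC 1, 4 and 5 higher without TAC + EMPA 3 and 4, and 16 lower without TAC + EMPA 2. Counts of genes that do not overlap can only stay or rise when a library is left out, because fewer values have to separate. Of the fits with 1 library left out, only that without TAC 3 has its shares over all genes given above. TAC and TAC + EMPA libraries share the numbers 1 to 3, but the correlations of their deviations were 0.104, 0.084 and −0.029, so the numbers were not taken as pairs. TAC 1 and TAC 2 correlated best with their own number and TAC 3 with TAC + EMPA 2. A replicate block gave 3 higher and 8 lower members at an unadjusted p under 0.05, a median of −0.07, and 0.0176 for Mrps18b. Shares over all genes at an unadjusted p are not given for this fit. They are also not given for the fit without both TAC 3 and TAC + EMPA 4. Whether the members or the whole table moved in these counts cannot be told. The sign of 4 named genes near 0 turned in 14 combinations of gene and fit. Mrpl42 was at −0.0418 with median centring and at −0.0371 to 0.0416 with 1 library left out. Mrps18b was at 0.0940 with the length correction, 0.0417 with it and without TAC 3, and −0.164 to 0.0999 with 1 library left out. Mrps30 was at −0.0490 with the length correction, −0.146 with it and without TAC 3, and −0.0188 with TAC 3 and TAC + EMPA 4 left out. Mrps18a was at 0.0241 with the length correction and 0.0327 with it and without TAC 3. The causes were not tested. With 3 and 4 mice and unknown total depth, small differences can have gone undetected, and the smallest detectable difference was not computed. Large differences without overlap did not pass with all 7 libraries either, such as that of Mettl17 (0.73 ± 0.12, limma, adjusted p = 0.115).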
